A study of Mus musculus with 2 samples.

Results

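The genes that mark T cells settled in tissue were followed across the T cells of mouse lung adenocarcinoma. The list held 6 of the 17790 genes in the deposited table: Itgae, Itga1, Cd69, Cxcr6, Rgs1 and Zfp683. They were taken by name, as textbook markers of tissue residency. Lung tumours of C57BL/6 mice had been microdissected, dissociated and parted with magnetic beads into a CD45-negative and a CD45-positive fraction, CD45 being the surface phosphatase of leukocytes, with 1 droplet library of 3′ transcript ends made from each. The labels give the strain, tissue and fraction, which both libraries share apart from the fraction. The genotype, the tumour model, age and number of mice, and the meaning of the name LucOS carried by the cells, were not stated in the sources used here, and neither was pooling of mice. By its title the series concerns IL-33 and regulatory T cells in tumours.

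Resident memory T cells lodge in epithelial tissue and do not return to the blood. Integrin αE, the product of Itgae, pairs with β7 and binds E-cadherin on epithelial cells, and integrin α1, the product of Itga1, pairs with β1 and binds collagen IV of basement membranes. CD69 holds the egress receptor S1PR1 off the cell surface, CXCR6 is the receptor of the membrane-bound chemokine CXCL16, RGS1 dampens signals of chemokine receptors, and Zfp683 encodes Hobit, a transcription factor of resident lymphocytes in mice. CD69 is also an early activation marker, and both it and RGS1 are known in activated B cells, so neither is particular to residency.

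All 6 are protein-coding genes. On GRCm38 the annotation places Itgae at chr11:73090583-73147446 on the plus strand, Itga1 at chr13:114953096-115101964 on the minus strand and Cd69 at chr6:129267325-129275436 on the minus strand. Cxcr6 lies at chr9:123806475-123811760 on the plus strand, Rgs1 at chr1:144242296-144249242 on the minus strand and Zfp683 at chr4:134053838-134058996 on the plus strand. Of the 6 genes, 2 were matched in a RefSeq table of promoters (GRCm38.p6), Cxcr6 and Itga1. These are shown because no other member was matched. In the data below Cxcr6 spread most between the T cell groups, and Itga1 had most of its transcripts outside leukocytes. Each is the 250 bases before the RefSeq start, 5′ to 3′ on the gene's strand, with the core motif of RUNX factors in capitals. RUNX3 is a known regulator of resident T cells.
Cxcr6, chr9:123806227-123806476, plus strand: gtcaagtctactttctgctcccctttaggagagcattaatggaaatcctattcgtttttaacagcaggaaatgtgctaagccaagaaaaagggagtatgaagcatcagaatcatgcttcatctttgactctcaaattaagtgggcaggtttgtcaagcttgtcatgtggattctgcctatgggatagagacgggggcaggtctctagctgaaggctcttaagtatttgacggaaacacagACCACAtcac
Itga1, chr13:115101965-115102214, minus strand: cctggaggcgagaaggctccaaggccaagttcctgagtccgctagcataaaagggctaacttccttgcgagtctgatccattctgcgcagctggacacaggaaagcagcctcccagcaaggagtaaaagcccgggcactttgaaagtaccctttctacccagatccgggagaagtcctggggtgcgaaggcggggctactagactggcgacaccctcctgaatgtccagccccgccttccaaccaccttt
The RUNX core, searched as TGTGGT or ACCACA on both strands, occurred once before Cxcr6, 5 to 10 bases before the start, and was not in the Itga1 window. It is in 14.0% of 32851 promoters of this length. A SMAD box, CAGAC or GTCTG, overlapped it before Cxcr6, at 9 to 13 bases from the start, and another lay 176 to 180 bases before Itga1. That motif is in 42.2% of promoters. The NFAT core, GGAAA or TTTCC, stood 3 times before Cxcr6 and once before Itga1, against 55.6% of promoters with at least 1. The TATA box TATAAA, found in 12.4% of promoters, was in neither. These matches describe letters only.

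The CD45-positive library held 11432 cells with 47477407 UMI (unique molecular identifiers, the counted transcripts) and a median of 3376 UMI per cell, and the CD45-negative library held 3957 cells with 40873786 UMI and a median of 7710. The first number is above the 6000 cells loaded per channel. The libraries share 57 cell barcodes. With 1 library per fraction and all T cell groups drawn from the same library, there is no replicate and no test between groups: the intervals here are 95% intervals for counting error only. Levels are CPM, the UMI of a gene per 1000000 UMI summed over a group of cells.

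T cells were taken as cells of the deposited Immune class in the CD45-positive library with at least 2 UMI of the CD3 genes Cd3d, Cd3e and Cd3g together, 4255 of 7438 cells (57.2%, Clopper-Pearson 56.1 to 58.3). Cells with at least 2 UMI of Cd8a and Cd8b1 are called CD8-gated (1242 cells), those with a Foxp3 UMI Foxp3-gated (178), and those with at least 2 UMI of Cd163l1 and Il17a Il17-gated (321). A further 162 cells passed several of these gates, and 2352 passed none and are called ungated. Median depths were 3276, 3519, 3033, 4006 and 3041.5 UMI per cell in that order.

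The Foxp3 and Il17 gates drew apart some marker genes they did not use. Ikzf2, which encodes Helios of regulatory T cells, stood at 586 CPM in Foxp3-gated against 127 in ungated cells. Il23r, the IL-23 receptor gene, had 10.3 CPM in Il17-gated against 2.74 CPM in ungated cells, from 12 and 23 UMI. Cd4 was less apart, at 64.0 CPM (47.2 to 84.8) in Foxp3-gated and 49.3 CPM (44.7 to 54.3) in ungated cells, with overlapping intervals. It was at 47.3 CPM in Il17-gated and 22.6 CPM in CD8-gated cells. The T cell label did not hold for every gated cell. CD3 UMI were spread through the CD45-positive library: at least 2 were found in 582 of 1250 Immune-class cells that pass a B cell gate (46.6%), in 438 of 1585 at an alveolar macrophage gate (27.6%) and in 768 of 2172 Endothelial-class cells (35.4%), against 9 of 3957 cells (0.227%) of the CD45-negative library. In turn, 1532 of the 4255 CD3-gated cells (36.0%) passed the gate of another leukocyte, from 26.3% of CD8-gated, 29.8% of Foxp3-gated and 30.2% of Il17-gated to 43.7% of ungated cells. The alveolar macrophage list summed to 555, 477, 969 and 1427 CPM in CD8-gated, Foxp3-gated, Il17-gated and ungated cells, with 6 of its 6 genes present in each, and the B cell list, with 4 of 4 genes present in each, to 325, 453, 398 and 568 CPM. Sftpc, a surfactant gene of alveolar type 2 cells, had a UMI in 97.3% to 99.1% of the cells of these 4 groups. Cells with at least 2 UMI of the cycling list made up 19.7% of Foxp3-gated cells and between 8.72% and 11.4% of the other 3. The part of other cells' RNA in the levels below was not tested. The levels of Itgae, Cd69, Cxcr6 and Rgs1 are therefore also given for a stricter set, 1488 cells with at least 6 CD3 UMI that pass no gate of another leukocyte (601 CD8-gated, 78 Foxp3-gated, 147 Il17-gated, 549 ungated and 113 at several gates), chosen after the data were seen.

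In that CD45-positive library the CD3-gated cells made up 37.2% of cells and 33.1% of UMI. They held 73.3% of its 3682 Cxcr6 UMI, 67.8% of its 723 Itgae UMI, 56.8% of its 8445 Rgs1 UMI and 52.0% of its 3828 Cd69 UMI, but 8.50% of its 859 Itga1 UMI. Zfp683 had 5 UMI in the whole series, in 5 cells, 4 of them CD3-gated. The CD45-negative library held few transcripts of 4 of these genes, with 10 UMI of Cxcr6, 18 of Itgae, 75 of Cd69 and 272 of Rgs1, none of Zfp683, and 1472 of Itga1.

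Itgae, the αE integrin, was higher in Foxp3-gated and Il17-gated cells than in CD8-gated and ungated cells. It stood at 61.3 CPM (44.9 to 81.8, from 46 UMI) in Foxp3-gated, 52.4 CPM (40.1 to 67.4, 61 UMI) in Il17-gated, 45 CPM (30.8 to 63.5, 32 UMI) at several gates, 27.9 CPM (23.3 to 33.1, 131 UMI) in CD8-gated and 26.2 CPM (22.9 to 29.9, 220 UMI) in ungated cells. Foxp3-gated cells thus had 2.34 times the Itgae level of ungated cells (1.66 to 3.23), and Il17-gated cells 2.0 times (1.48 to 2.67). The first 2 groups did not differ beyond counting error (Foxp3-gated over Il17-gated 1.17, 0.78 to 1.74), nor did the last 2 (CD8-gated over ungated 1.06, 0.851 to 1.33). CD8-gated cells had 0.45 times the level of Foxp3-gated cells (0.323 to 0.651) and 0.53 times that of Il17-gated cells (0.39 to 0.733). A UMI of Itgae was seen in 19.7% of Foxp3-gated, 16.2% of Il17-gated, 8.45% of CD8-gated and 8.12% of ungated cells, and in 6.74%, 5.92%, 2.42% and 2.76% once every cell was thinned to 1000 UMI. In B-gated cells, 382 cells with 0 CD3 UMI and a median of 2844 UMI, which should lack the gene, the share was 2.36% and the level 8.0 CPM (3.83 to 14.7). In the stricter set Foxp3-gated and Il17-gated cells were again first, with 89.5 and 72.0 CPM, against 41.6 CPM in ungated and 39.2 CPM in CD8-gated cells. The ratio of Foxp3-gated over ungated cells was 3.65 where the gates asked for 2 Foxp3 UMI, and 1.90 (0.898 to 3.64) in the 59 Foxp3-gated cells left without UMI of other lineages, where the difference was no longer beyond counting error. Under that setting Il17-gated cells were at 2.81 times the ungated level (1.71 to 4.50), so the order of the first 2 groups was not kept. Its β7 partner gene Itgb7 stood at 213 CPM in Il17-gated and 161 CPM in Foxp3-gated cells, against 132 CPM in ungated and 118 CPM in CD8-gated cells.

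Itga1, the α1 integrin, was rare in every T cell group. It had 22 UMI in CD8-gated cells (4.68 CPM, 2.94 to 7.09), 43 in ungated (5.12 CPM, 3.71 to 6.90), 4 in Il17-gated (3.44 CPM, 0.937 to 8.80) and 4 at several gates (5.62 CPM, 1.53 to 14.4). None was counted in the 178 Foxp3-gated cells, which allows a level of up to 4.0 CPM and a share of cells with a UMI of up to 1.69%. CD8-gated and ungated cells did not differ beyond counting error (0.91, 0.521 to 1.56). No CD8-gated cell had more than 1 Itga1 UMI, and the share with one was 1.77%, or 0.564% after thinning. Alveolar macrophage-gated cells without CD3 UMI stood in the same range, at 5.63 CPM (3.15 to 9.28), so that no T cell group lay above that level by more than its interval. Its β1 partner gene Itgb1 was 144 CPM in CD8-gated and 110 CPM in ungated cells.

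Cd69, of the egress block, varied least between the groups among the 4 well-counted genes. The level was 147 CPM (121 to 177, 110 UMI) in Foxp3-gated, 140 CPM (119 to 163, 163 UMI) in Il17-gated, 131 CPM (123 to 139, 1100 UMI) in ungated, 122 CPM (98.0 to 151, 87 UMI) at several gates and 113 CPM (104 to 123, 532 UMI) in CD8-gated cells. CD8-gated cells lay at the bottom, with 0.86 times the level of ungated cells (0.778 to 0.959) and 0.77 times that of Foxp3-gated cells (0.628 to 0.958). The intervals of neighbours in this order overlapped. With T cells taken from every deposited class, CD8-gated and ungated cells did not differ beyond counting error (1.06, 0.962 to 1.17). In the stricter set Foxp3-gated and CD8-gated cells were at 106 and 108 CPM, and Il17-gated and ungated cells both at 142 CPM. The ratio of Foxp3-gated over ungated cells, 1.12 (0.911 to 1.36) in all gated cells, was 0.75 (0.502 to 1.07) there, so its direction was not settled. The share of cells with a Cd69 UMI was 30.7% in CD8-gated, 33.1% in ungated, 36.8% in Il17-gated and 37.1% in Foxp3-gated cells. It was 34.6% in B-gated cells, whose level was 144 CPM (124 to 167), and 44.5% in plasma-gated cells at 192 CPM (166 to 222). CD8-gated cells thus lay below B-gated cells, the other 3 T cell groups overlapped B-gated cells, and plasma-gated cells lay above CD8-gated, ungated and Il17-gated cells. After thinning the shares were 9.42%, 12.5%, 14.0% and 10.7% in the 4 T cell groups and 13.1% in B-gated cells.

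Cxcr6, the CXCL16 receptor, spread widest. Il17-gated cells had 376 CPM (342 to 413, 438 UMI), cells at several gates 291 CPM (253 to 334, 207 UMI), CD8-gated cells 206 CPM (193 to 219, 966 UMI), ungated cells 123 CPM (116 to 131, 1033 UMI) and Foxp3-gated cells 73.3 CPM (55.2 to 95.4, 55 UMI). No pair of neighbours in this order had overlapping intervals. Il17-gated cells had 3.06 times the level of ungated cells (2.73 to 3.42), CD8-gated cells had 1.67 times (1.53 to 1.83) and Foxp3-gated cells had 0.60 times (0.446 to 0.781). Il17-gated cells had 5.14 times the level of Foxp3-gated cells. Where cells at several gates were counted in each of them, Foxp3-gated over ungated cells gave 0.938. The share of cells with a Cxcr6 UMI was 61.1% in Il17-gated, 41.7% in CD8-gated, 28.9% in ungated and 24.2% in Foxp3-gated cells, and 30.2%, 17.8%, 12.3% and 6.18% after thinning. B-gated cells had 6.02%, or 2.62% thinned, and 24.8 CPM (16.8 to 35.2). The stricter set gave 553, 273, 207 and 115 CPM in Il17-gated, CD8-gated, ungated and Foxp3-gated cells, the same order.

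Rgs1, the brake on chemokine receptor signals, was highest in Il17-gated cells at 528 CPM (487 to 571, 614 UMI). Foxp3-gated cells followed at 351 CPM (309 to 396, 263 UMI), then cells at several gates at 330 CPM (290 to 375, 235 UMI), ungated cells at 294 CPM (283 to 306, 2469 UMI) and CD8-gated cells at 259 CPM (244 to 274, 1215 UMI). The intervals of Il17-gated and of CD8-gated cells overlapped no others. Il17-gated cells had 1.79 times the ungated level (1.64 to 1.96), Foxp3-gated cells 1.19 times (1.05 to 1.35) and CD8-gated cells 0.88 times (0.82 to 0.942). A UMI was seen in 73.5%, 67.4%, 53.7% and 49.8% of Il17-gated, Foxp3-gated, ungated and CD8-gated cells, and in 42.1%, 30.3%, 25.6% and 20.6% after thinning. B-gated cells were at 28.3%, or 13.6% thinned, and 169 CPM (147 to 193), below each T cell group. In the stricter set the levels were 611 CPM in Il17-gated, 419 in Foxp3-gated, 397 in ungated and 287 in CD8-gated cells, and the difference between Foxp3-gated and ungated cells was within counting error (1.06, 0.87 to 1.27). That ratio was 0.887 (0.653 to 1.18) where the gates asked for 2 Foxp3 UMI, which left 40 Foxp3-gated cells. CD8-gated over ungated cells gave 1.05 (0.984 to 1.12) with T cells from every deposited class. These smaller Rgs1 differences thus fell within counting error under those settings, while Il17-gated cells stayed above ungated cells in all alternatives (1.54 to 2.86).

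Zfp683, which encodes Hobit, was not detectable beyond single transcripts. It had 3 UMI in ungated cells (0.357 CPM, 0.0737 to 1.04) and 1 in Foxp3-gated cells. No UMI was counted among the 1242 CD8-gated cells, which allows a level of up to 0.639 CPM and a share of cells with a UMI of up to 0.242%, nor among the 321 Il17-gated cells, which allows up to 2.58 CPM and 0.935%. Whether its transcript was absent or below the reach of 3′ counting at this depth cannot be told apart.

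**Figure D1:**
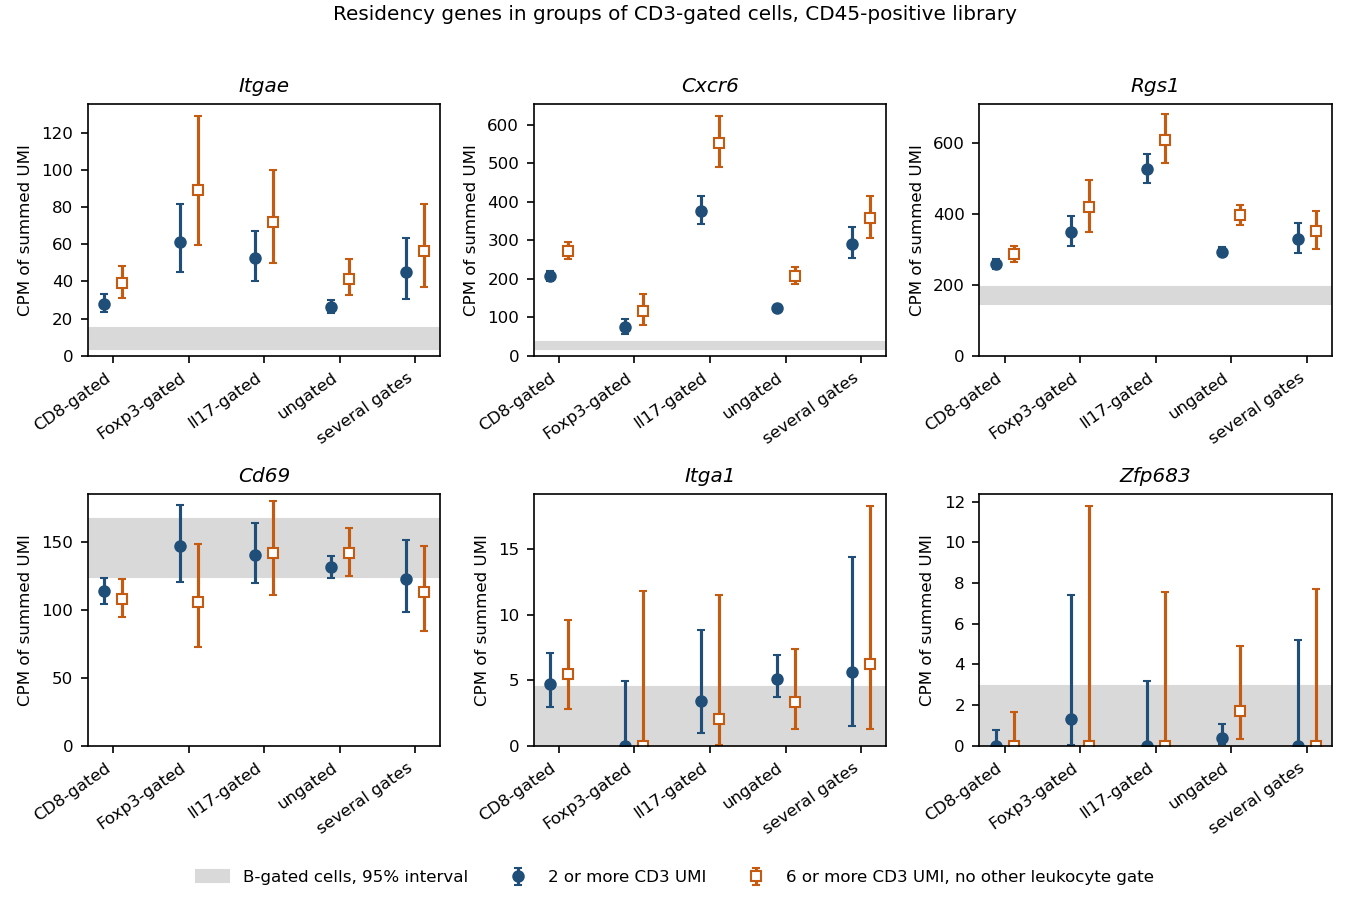
CPM of summed UMI (y axis) of the 6 residency genes in the 5 groups of CD3-gated cells of the CD45-positive library (x axis), with exact Poisson 95% intervals. Filled circles are cells with 2 or more CD3 UMI, open squares the stricter set with 6 or more and no other leukocyte gate, and the grey band is the interval of B-gated cells. Itgae is higher in Foxp3-gated (61.3 CPM) and Il17-gated cells (52.4 CPM) than in CD8-gated and ungated cells, Cxcr6 (376 CPM) and Rgs1 (528 CPM) are highest in Il17-gated cells, and Cd69 lies near or inside the band of B-gated cells in all groups.

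Calls of a 2-fold difference among the 6 genes are set beside the share of all genes that passed it. A gene was counted if it had at least 20 UMI over both groups, which left out Zfp683 in each comparison and Itga1 in Foxp3-gated against Il17-gated cells. In CD8-gated over ungated cells 0 of 5 genes were 2-fold higher or lower, where 1.63% of all 11204 genes were higher and 4.55% lower. In Foxp3-gated over ungated cells Itgae was higher, where 3.84% of 10612 genes were higher and 10.4% lower. Itga1, with 0 against 43 UMI, is given no call, since the count of 0 allows 4.0 CPM against 5.12 CPM. The shares over all genes, and the gene lists below, do count a gene with 0 UMI in 1 group as past 2-fold. By that rule Itga1 would be lower here. In Il17-gated over ungated cells Cxcr6 and Itgae were higher, Itgae at the limit itself, and 0 of 5 lower, where 3.14% of 10698 genes were higher and 5.37% lower. CD8-gated cells were 2-fold higher than Foxp3-gated cells in Cxcr6, with a ratio of 2.81 (2.14 to 3.75), and lower in Itgae, against a background of 7.18% higher and 4.09% lower, and Itga1, with 22 against 0 UMI, again had no call. They were 2-fold lower than Il17-gated cells in Rgs1, at 0.49 times (0.445 to 0.541), against 4.61% higher and 4.76% lower. Foxp3-gated cells were 2-fold lower than Il17-gated cells in Cxcr6, against 3.48% higher and 5.7% lower. In the stricter set, over ungated cells of that set, 0 of the 4 genes counted were 2-fold higher or lower in CD8-gated cells (background 2.64% higher and 1.96% lower), Itgae was higher in Foxp3-gated cells at 2.15 times (1.34 to 3.37, background 4.78% higher and 7.74% lower), and Cxcr6 was higher in Il17-gated cells at 2.67 times (2.27 to 3.13, background 3.29% higher and 5.15% lower). Itgae in Il17-gated cells was then at 1.73 times (1.12 to 2.62), short of 2-fold. Counting cells at several gates in each of them took Cxcr6 in CD8-gated over Foxp3-gated cells to 1.88 and Rgs1 in CD8-gated over Il17-gated cells to 0.574, both short of 2-fold. With so few genes these counts are a description. Comparisons that share the ungated cells are not independent of each other.

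Levels were then followed by the number of CD3 UMI in a cell, over all 7438 Immune-class cells of the CD45-positive library. From cells with 0 to cells with at least 9 CD3 UMI, Cxcr6 went from 17.0 CPM (14.2 to 20.2) to 279 CPM (263 to 296) and Itgae from 9.15 CPM (7.13 to 11.6) to 47.1 CPM (40.7 to 54.2). Rgs1 had 172 CPM (163 to 181) in cells without CD3 UMI, 325 CPM at 4 to 5 and 336 CPM (319 to 354) at 9 or more. Cd69 had 94.4 CPM (87.6 to 101) without CD3 UMI, 141 CPM (129 to 154) at 4 to 5 and 117 CPM (107 to 128) at 9 or more. Itga1 showed no such course, with 3.79 CPM (2.54 to 5.44) and 4.61 CPM (2.78 to 7.21) at the ends. The same split in cells of other classes gave values of the same kind. Endothelial-class cells of this library with 0 CD3 UMI had 12 CPM of Cxcr6 (8.76 to 16.1) and 2.67 CPM of Itgae (1.28 to 4.91), and those with at least 2 had 101 CPM (90.7 to 112) and 15.0 CPM (11.2 to 19.7). Itga1 went the other way in them, from 93.1 CPM (83.6 to 103) to 55.2 CPM (47.6 to 63.7). AT2-class cells had 10.5 CPM of Cxcr6 without CD3 UMI and 59.7 CPM with at least 2.

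**Figure D2:**
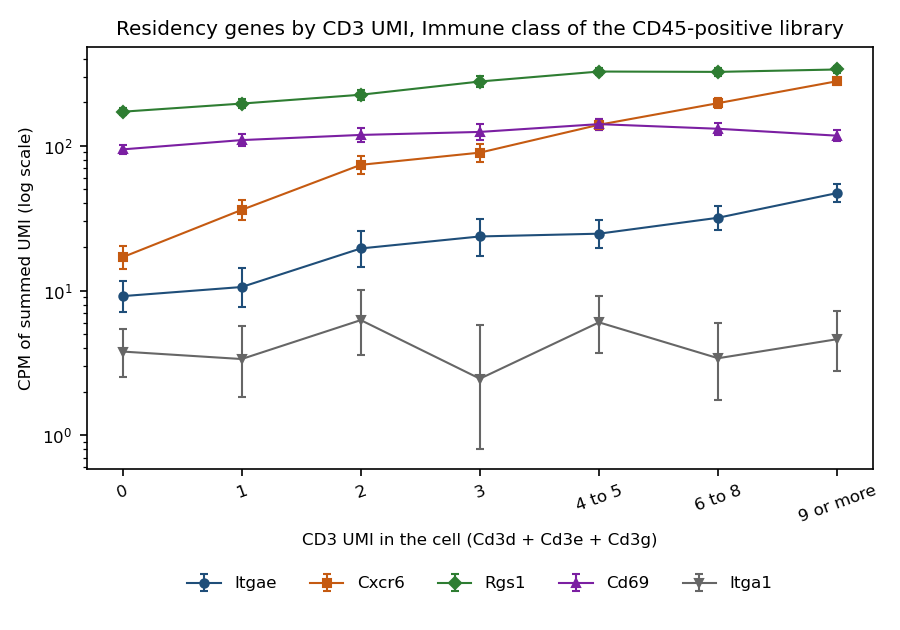
CPM of summed UMI on a log scale (y axis) against the CD3 UMI in a cell (x axis) for 5 residency genes in Immune-class cells of the CD45-positive library, with exact Poisson 95% intervals. Cxcr6 climbs from 17.0 to 279 CPM and Itgae from 9.15 to 47.1 CPM. Cd69 is highest at 4 to 5 CD3 UMI (141 CPM), and the intervals of Itga1 overlap throughout.

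Across the other cells of the tumour the 5 counted genes had separate patterns. Among the deposited classes Itga1 was highest in the Endothelial class, which was not split further here. In the CD45-negative library that class had 125 CPM (118 to 133, 1236 UMI), with a UMI in 57.6% of 1249 cells. The Erythrocyte class there had 20.8 CPM, and the AT1, AT2, Ciliated and Fibroblast classes between 3.73 and 7.97 CPM. The Endothelial class of the CD45-positive library had 75.9 CPM. Rgs1 was as high in C1q macrophage-gated cells without CD3 UMI, at 404 CPM (348 to 466), as in some T cell groups, and stood at 303 CPM in dendritic-gated and 146 CPM in alveolar macrophage-gated cells. Itgae, known in one class of dendritic cells, reached 39.7 CPM (19.8 to 71.0) in 74 dendritic-gated cells from 11 UMI in 5 cells. It was between 2.15 and 3.10 CPM in macrophage-gated and plasma-gated cells. Cxcr6 was at most 24.8 CPM in leukocyte gates with at least 20 cells other than T cells, and at most 1.60 CPM in the non-immune classes of the CD45-negative library.

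**Figure D3:**
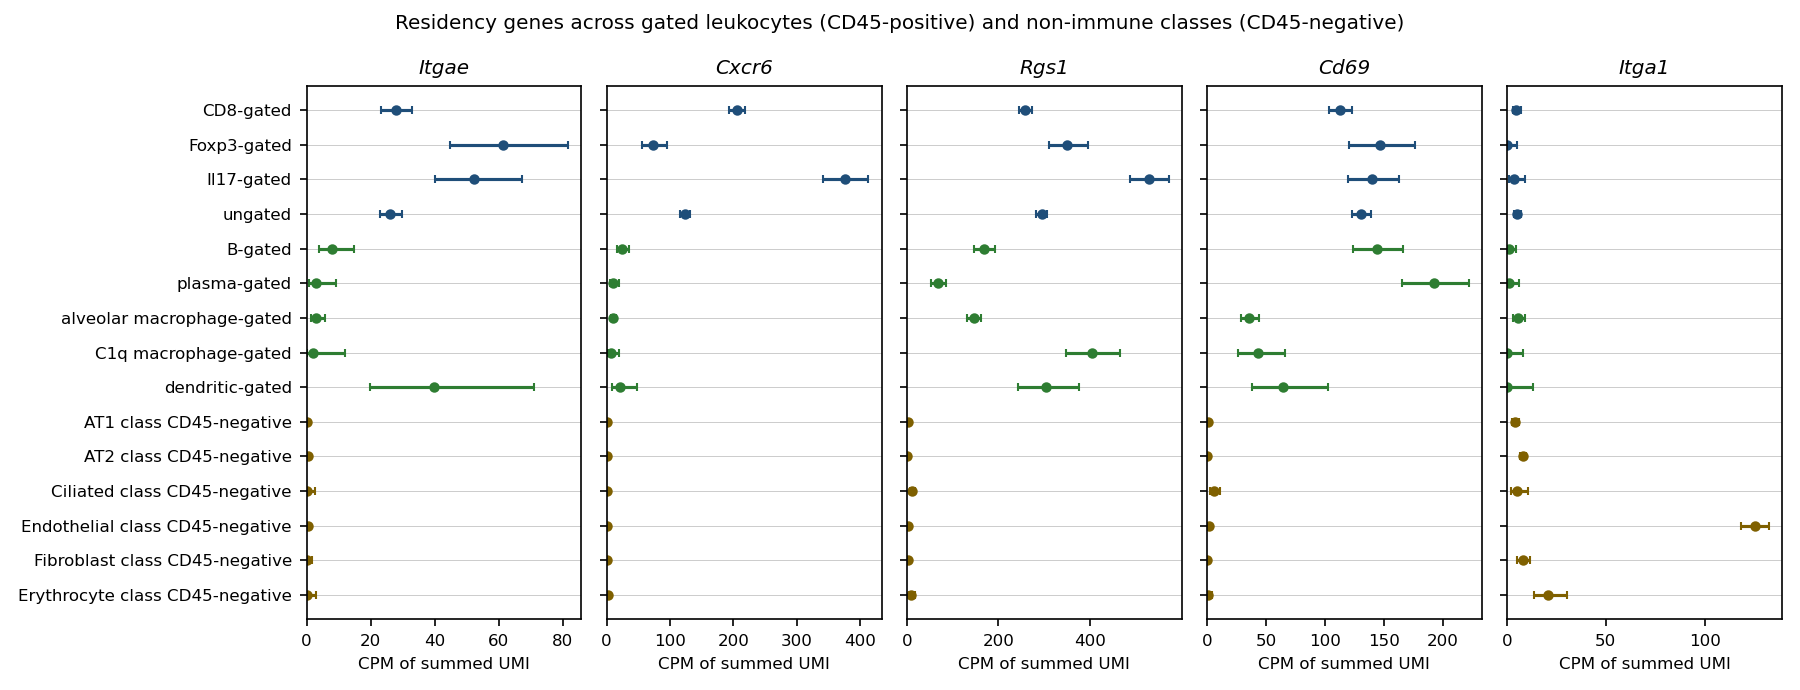
CPM of summed UMI (x axes) of 5 residency genes in T cell groups (blue), gated leukocytes without CD3 UMI (green) and non-immune classes of the CD45-negative library (brown), with exact Poisson 95% intervals. Itga1 stands out in the Endothelial class (125 CPM), Rgs1 and Cd69 are shared by several leukocytes, and Cxcr6 is highest in the T cell groups.

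Over 17 such groups of cells, Pearson's r of log2(CPM + 1) was taken between each member and 10350 genes with at least 200 UMI in the CD45-positive library. The groups come from 2 libraries and share their depth and free RNA, so r is a description. Nearest to Itgae were Xlr4a (0.98), Il2ra, the IL-2 receptor α chain (0.97), and Sla2, an adaptor of antigen receptor signalling (0.96). Nearest to Cxcr6 were the T cell adaptor genes Sh2d2a (0.98) and Sit1 (0.97) and the kinase gene Txk (0.97). Nearest to Cd69 were the integrin gene Itga4 (0.98), Ikzf1, which encodes Ikaros (0.97), and the receptor gene P2ry10 (0.97), and nearest to Rgs1 were Gpr132, Lpxn and Nfkbid (0.97 each). Nearest to Itga1 were Nsg1 (0.95), the Notch ligand gene Dll4 (0.94) and Hoxb5 (0.94). Among the members the highest r were 0.93 between Cd69 and Rgs1 and 0.90 between Itgae and Cxcr6, and Itga1 was negative with each of the other 4, from -0.35 with Itgae to -0.66 with Rgs1.

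The genes were counted together cell by cell. Cells with exactly 2 of them made up 28.7% of CD8-gated, 29.0% of ungated, 29.8% of Foxp3-gated and 40.2% of Il17-gated cells. No cell in any T cell group had a UMI of 5 or 6 of them. Cells with none made up 23.8% of CD8-gated, 23.0% of ungated, 12.4% of Foxp3-gated and 6.85% of Il17-gated cells, and cells with 3 made up 11.3%, 8.46%, 14.0% and 23.1%. Cells with 4 numbered 20, 22, 2 and 10. After thinning to 1000 UMI per cell, 59.7% of CD8-gated, 56.7% of ungated, 54.5% of Foxp3-gated and 33.0% of Il17-gated cells had none.

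CD8-gated cells were split by a UMI of 1 member. Over all CD8-gated cells, Itgae, Cxcr6 and Rgs1 were each higher in cells that carried 1 of the other 2. In the stricter set the Cxcr6 ratio of the split by Itgae fell to 1.09. The splits by Cxcr6 and by Rgs1 were not repeated there. The 105 cells with an Itgae UMI had 360 CPM of Rgs1 against 248 CPM in the 1137 without (ratio 1.45, 1.22 to 1.72), and 271 against 199 CPM of Cxcr6 (1.36, 1.11 to 1.65). Cd69 was at 144 against 110 CPM, with an interval that reached 1 (1.31, 0.992 to 1.71). The cells with Itgae were deeper, with a median of 3737 against 3247 UMI, and the share with an Rgs1 UMI was 65.7% (55.8 to 74.7) against 48.3% (45.3 to 51.2). In the 601 CD8-gated cells of the stricter set the Cxcr6 ratio was 1.09, it was 1.02 in cells free of UMI of other lineages, and it was 3.31 after thinning, where 30 cells kept an Itgae UMI. Split by Cxcr6 (518 against 724 cells), Itgae was at 34.9 against 22.6 CPM (1.54, 1.08 to 2.22) and Rgs1 at 310 against 219 CPM (1.41, 1.26 to 1.59). Split by Rgs1 (618 against 624 cells), Cxcr6 was at 244 against 162 CPM (1.51, 1.32 to 1.72) and Itgae at 33.2 against 21.8 CPM (1.52, 1.05 to 2.22). Split by Cd69 (381 against 861 cells), Rgs1 was at 282 against 247 CPM (1.14, 1.01 to 1.29), and the intervals for Cxcr6 (1.10, 0.965 to 1.26) and Itgae (1.30, 0.899 to 1.87) held 1. Itga1 had 22 UMI in 22 of these cells, too few to place: its ratio was 0.47 (0.0112 to 2.89) by Itgae, 0.61 (0.21 to 1.59) by Cxcr6 and 0.92 (0.318 to 2.41) by Cd69. Over the summed UMI of all CD8-gated cells without thinning, none of the ratios of Itgae, Cxcr6, Rgs1 and Cd69 reached 2. The background of 2-fold higher and lower genes was 3.63% and 9.88% for the split by Itgae, 1.93% and 1.19% by Cxcr6, 2.12% and 0.824% by Rgs1 and 0.901% and 2.57% by Cd69. In Foxp3-gated cells the pairing of Itgae and Cxcr6 ran the other way in value, with a Cxcr6 UMI in 5 of 35 cells with Itgae (14.3%, 4.81 to 30.3) against 26.6% (19.5 to 34.6) of those without, and the intervals overlapped. In Il17-gated cells those shares were 65.4% of 52 cells and 60.2% of 269.

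CD8-gated cells with a UMI of Pdcd1 or Lag3, genes of inhibitory receptors, parted the members. In these 520 cells Cxcr6 was at 277 CPM against 151 CPM in the other 722 (1.83, 1.61 to 2.09), and Cd69 was at 94.5 against 128 CPM (0.74, 0.617 to 0.885). Itgae was at 27.9 CPM in both (1.0, 0.696 to 1.43), and Rgs1 at 264 and 255 CPM (1.04, 0.923 to 1.16). None of the 5 counted genes passed 2-fold, where 4.68% of 9097 genes were higher and 2.17% lower. Foxp3-gated cells with a UMI of Il1rl1, the IL-33 receptor gene, Klrg1 or Areg (79 against 99 cells) had 89.2 against 60.4 CPM of Cxcr6 (1.48, 0.839 to 2.62), 59.4 against 62.8 CPM of Itgae (0.95, 0.501 to 1.76), 386 against 321 CPM of Rgs1 (1.20, 0.936 to 1.54) and 149 against 145 CPM of Cd69 (1.02, 0.69 to 1.52). All 4 intervals held 1, so no difference was detectable at this depth, and 0 of these genes passed 2-fold against backgrounds of 2.48% and 4.34%. Ungated cells with a Cd4 UMI (346 against 2006 cells) had 1.23 times the Cxcr6 (1.04 to 1.43) and 1.19 times the Rgs1 (1.07 to 1.31) of those without, and 0 of 5 genes passed 2-fold, where 1.5% of genes were higher and 4.77% lower.

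**Figure D4:**
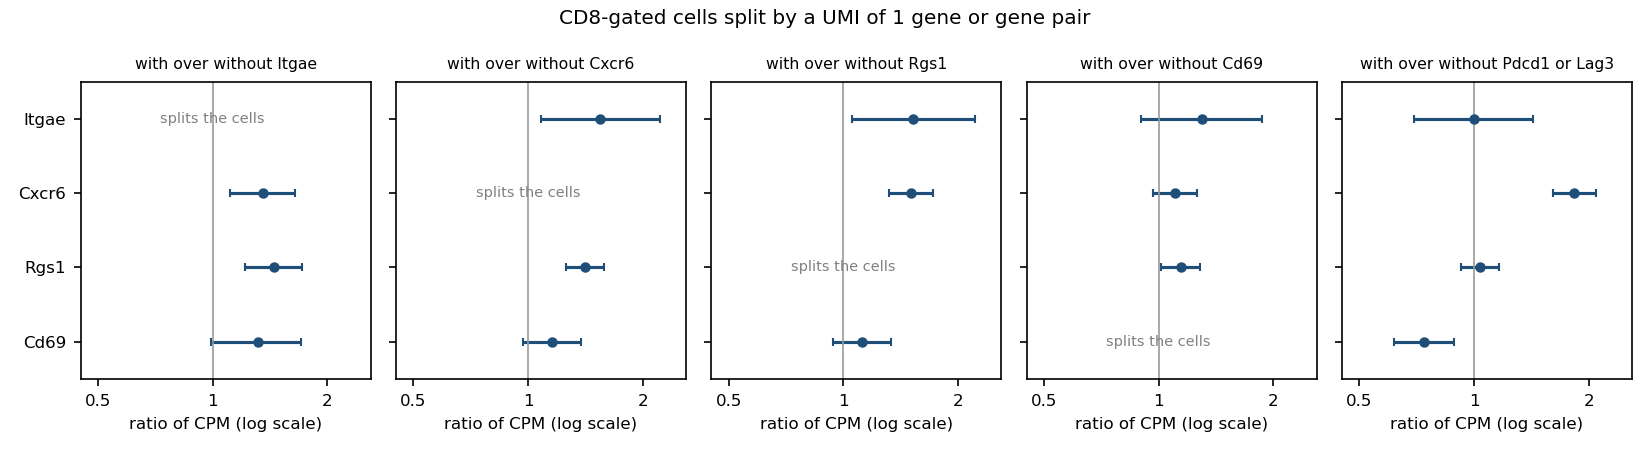
Ratio of CPM on a log scale (x axes) of 4 residency genes (y axis) in CD8-gated cells with over without a UMI of the gene or gene pair named above each panel, with exact 95% intervals for counting error. Cells with Itgae have 1.45 times the Rgs1 of those without, and cells with Pdcd1 or Lag3 have 1.83 times the Cxcr6 and 0.74 times the Cd69.

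The wider residency programme was read from 3 gene lists, counting genes with 2-fold ratios among those with at least 20 UMI over both groups. Of 15 regulators, among them Runx3, Prdm1, which encodes Blimp-1, and the TGF-β receptor genes, 0 were higher or lower in CD8-gated over ungated cells, where 1.63% of all genes were higher and 4.55% lower, with a median log2 ratio of -0.03 against -0.02 over all genes. In Foxp3-gated and in Il17-gated over ungated cells 0 were higher and 1 lower, Eomes in both, beside 3.84% and 10.4%, and 3.14% and 5.37%, of all genes, with medians of -0.03 against 0.07 and 0.08 against 0.07. The stricter set gave 2 higher and 0 lower in CD8-gated cells, Nr4a2 at 2.18 times (1.67 to 2.87) and Eomes at 2.03 times (1.22 to 3.49), 1 higher and 2 lower in Foxp3-gated cells, and 0 higher and 1 lower in Il17-gated cells, with all-gene shares of 2.64% and 1.96%, 4.78% and 7.74%, and 3.29% and 5.15%. Runx3 stood at 128 CPM in CD8-gated, 117 in Il17-gated, 105 in ungated and 84.0 in Foxp3-gated cells. Prdm1 was highest in Foxp3-gated cells, at 65.3 CPM against 38.4 CPM in ungated cells (1.70, 1.23 to 2.30).

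Of 18 other residency-associated genes tested in CD8-gated over ungated cells, 3 were higher and 1 lower, beside 1.63% and 4.55% of all genes, with a median log2 ratio of -0.02 against -0.02 over all genes. Those higher were Xcl1, a chemokine that draws cross-presenting dendritic cells, at 583 against 70.1 CPM (8.32, 7.60 to 9.11), Pdcd1 at 105 against 31.2 CPM (3.36, 2.89 to 3.92) and Ccr8 from 12 and 9 UMI, with an interval that held 1 (2.38, 0.921 to 6.40). Fabp5, a fatty acid-binding protein gene also known in alveolar macrophages, was lower at 89.0 against 181 CPM. In Foxp3-gated over ungated cells 2 of 17 were higher and 3 lower, beside 3.84% and 10.4% of all genes, with a median of 0.37 against 0.07. Ctla4, the inhibitory receptor of regulatory T cells, was at 300 against 94.5 CPM (3.17, 2.72 to 3.68), and Il2rb, a chain of the IL-2 receptor, at 132 against 64.2 CPM (2.05, 1.64 to 2.55). The 3 lower genes were Fabp4, Dusp6 and Xcl1. In Il17-gated over ungated cells 0 of 17 were higher and 1 lower, beside 3.14% and 5.37% of all genes, with a median of 0.08 against 0.07. In the stricter set the counts were 2 higher and 0 lower of 15 in CD8-gated cells, beside 2.64% and 1.96% of all genes. They were 2 and 2 of 13 in Foxp3-gated cells, beside 4.78% and 7.74%. The higher were then Ctla4 and Fabp5, with Il2rb short of 2-fold, and the lower were Xcl1 and Dusp6. Il17-gated cells had 0 higher and 3 lower of 14 there, beside 3.29% and 5.15% of all genes. Their median was -0.28 against 0.07, on the other side of 0 from the value in all gated cells.

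The opposite programme was read from 21 genes of recirculating and naive T cells. In CD8-gated over ungated cells 0 of 20 tested were higher and 1 lower, Itgax, beside 1.63% and 4.55% of all genes, with a median of 0.02 against -0.02. In the stricter set Itgax was instead among the 4 genes of this list with the highest such ratio. In Foxp3-gated over ungated cells 1 of 19 was higher and 3 lower, beside 3.84% and 10.4% of all genes, with a median of -0.22 against 0.07. Klrg1 was at 77.3 against 12.8 CPM (6.06, 4.33 to 8.42), and Tcf7, of naive and memory cells, was at 40.0 against 97.1 CPM (0.41, 0.276 to 0.592). In Il17-gated over ungated cells 0 of 19 were higher and 3 lower, beside 3.14% and 5.37% of all genes, with a median of -0.29 against 0.07. Ccr7, the lymph node homing receptor, was at 24.1 against 68.6 CPM (0.35, 0.231 to 0.512), and Lef1 at 18.1 against 39.8 CPM. In the stricter set 1 of 18 was higher and 0 lower in CD8-gated cells, beside 2.64% and 1.96% of all genes. The median was -0.24 against -0.01. Foxp3-gated cells had 1 higher and 3 lower of 17, beside 4.78% and 7.74% (medians -0.54 against 0.12). Il17-gated cells had 0 higher and 3 lower of 16, beside 3.29% and 5.15% (medians -0.36 against 0.07). S1pr1, the egress receptor that CD69 opposes, stood at 110 CPM in ungated, 99.7 in Il17-gated, 88.0 in CD8-gated and 65.3 in Foxp3-gated cells. Among CD8-gated cells with Pdcd1 or Lag3, where Cxcr6 was higher, 1 of 18 of these genes was higher and 5 were lower, beside 4.68% and 2.17% of all genes, with a median of -0.41 against 0.14. The 1 higher gene was Cx3cr1. Among the lower genes, Lef1 was at 17.6 CPM in cells with Pdcd1 or Lag3 against 63.7 CPM without, and Ly6c2 at 145 against 380 CPM. Among CD8-gated cells with an Itgae UMI the same list had 1 higher and 0 lower of 18, beside 3.63% and 9.88% of all genes, with a median of 0.01 against 0.10. Itgb7, of the partner chain, was at 213 against 108 CPM in those cells (1.98, 1.57 to 2.48).

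Transcripts of the receptors' ligands lay in other cells. Cdh1, which encodes the E-cadherin bound by αEβ7, was at 280 CPM (266 to 294) in the AT1, 255 CPM (229 to 283) in the Ciliated and 187 CPM (181 to 194) in the AT2 class of the CD45-negative library. Alveolar macrophage-gated cells had 43.5 CPM, dendritic-gated cells 36.1 CPM and ungated T cells 17.4 CPM. Cxcl16, the ligand of CXCR6, was highest in C1q macrophage-gated cells at 771 CPM (693 to 855), then in dendritic-gated cells at 451 CPM (375 to 537) and in the AT1 class at 392 CPM (376 to 410). AT2 cells had 129 CPM and the T cell groups between 26.4 CPM in CD8-gated and 57.3 CPM in ungated cells. Col4a1, of the collagen IV bound by α1β1, was at 352 CPM (341 to 364) in the Endothelial class, which also held the Itga1 transcripts, and at 163 CPM in the AT1 class.

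**Figure D5:**
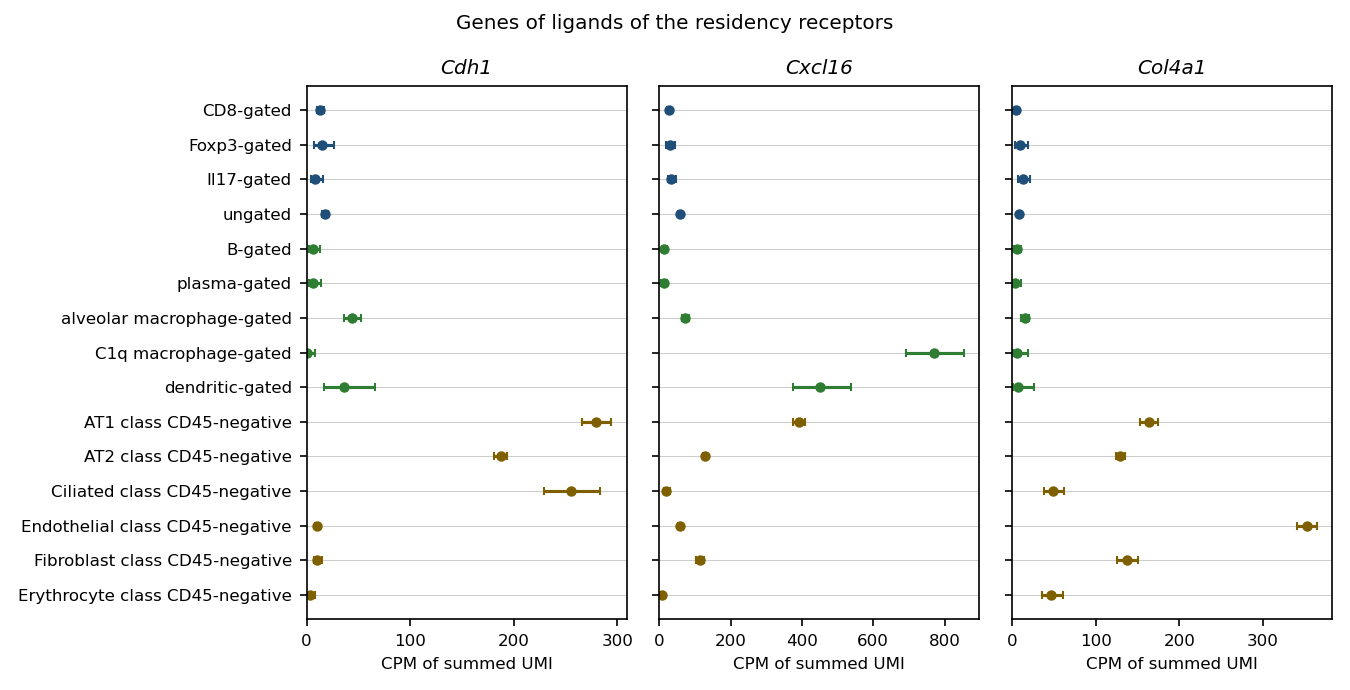
CPM of summed UMI (x axes) of the ligand genes Cdh1, Cxcl16 and Col4a1 in T cell groups (blue), gated leukocytes without CD3 UMI (green) and non-immune classes of the CD45-negative library (brown), with exact Poisson 95% intervals. Cdh1 is highest in AT1, Ciliated and AT2 cells, Cxcl16 in C1q macrophage-gated cells (771 CPM), and Col4a1 in the Endothelial class (352 CPM).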

How the data were processed

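Single-cell 3′ RNA was measured in 1 CD45-negative and 1 CD45-positive library. Per the series design text, Cell Ranger 1.1.0 aligned reads of 98 bases to mm10 and collapsed UMI. The authors deposited raw UMI counts per gene and cell, and a table with the class, the total count and the number of detected genes of each cell, and both sums were checked and matched in all 15389 cells. Columns of other samples numbered 0. The sources used here do not state how the classes were made. All cells were kept, no doublet caller was run and no doublets were removed. Genes of T cell receptor chains were not used here.

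CPM of summed UMI had exact Poisson intervals, shares Clopper-Pearson intervals and ratios exact conditional-binomial intervals, all at 95%. A count of 0 was given an upper limit of 3 counts, which lies below the upper end of its exact Poisson 95% interval. Gates for other leukocytes were summed UMI of marker genes (B cells 4, plasma cells 3, alveolar macrophages 4, C1q macrophages 5, neutrophils 3, dendritic cells 3 and NK cells 2 or more), and groups of them held 0 CD3 UMI. UMI of other lineages were counted as present from the same gates or 5 epithelial or endothelial UMI. The pseudocount was 1 for correlations and 0.5 counts for list medians. Named genes were the 6 members, their partners and ligands, up to 4 genes at each end of each list, and the 3 genes most like each member. The members and lists were chosen with earlier results of these data known. The ratios were tested on simulated data. The alternatives were thinning, the mean of per-cell levels, stricter gates, removal of cells with other lineages or cycling genes, every deposited class, subtraction of the B-gated level and the filter on low counts. Gene positions came from GENCODE on GRCm38. Intervals came from scipy 1.17.1, sums from pandas 2.3.3 and numpy 2.4.6, and plots from matplotlib 3.10.9, under Python 3.11.15.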

Additional observations from a re-analysis of the deposited data

How the results depend on the processing

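In all, 226 alternative values were computed for 21 ratios of the members between T cell groups: 182 lay within the interval of the value in the report, 44 outside it, and 0 turned a difference of 2-fold or more. Of smaller ratios whose interval excluded 1, those that crossed to the other side of 1 were Cd69 and Rgs1 in CD8-gated over ungated cells, Rgs1 in Foxp3-gated over ungated cells, and Cd69 and Rgs1 in CD8-gated over Foxp3-gated cells. The interval of each such crossing value held 1. The cause was not tested for any of the values below, beyond what each setting takes out. In each sentence a ratio is the first group over the second.

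With cells thinned to 1000 UMI, Cd69 was 0.734 and Rgs1 0.781 in CD8-gated over ungated cells, Cd69 0.867 in Foxp3-gated over ungated cells, and Cd69 0.668 and Rgs1 0.417 in CD8-gated over Il17-gated cells. With 3 CD3 UMI, Cxcr6 was 1.49 in CD8-gated over ungated cells. With cells at several gates counted in each, Cxcr6 was 0.938 in Foxp3-gated over ungated and 1.88 in CD8-gated over Foxp3-gated cells, and Rgs1 was 1.58 in Il17-gated over ungated and 0.574 in CD8-gated over Il17-gated cells. With stricter subset gates, Itgae was 3.65 and Rgs1 0.887 in Foxp3-gated over ungated cells, and Itgae 0.319 and Rgs1 1.02 in CD8-gated over Foxp3-gated cells.

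With cells that carry UMI of other leukocytes, epithelium or endothelium left out, Cxcr6 was 1.41 and Rgs1 0.693 in CD8-gated over ungated cells, Itgae 2.81 and Cxcr6 2.67 in Il17-gated over ungated cells, and Cd69 0.674 and Rgs1 0.395 in CD8-gated over Il17-gated cells. With T cells from every deposited class, Cd69 was 1.06, Cxcr6 1.88 and Rgs1 1.05 in CD8-gated over ungated cells, Cd69 1.39 in Foxp3-gated over ungated cells and Rgs1 0.545 in CD8-gated over Il17-gated cells. With the B-gated level subtracted, Cxcr6 was 1.84 and Rgs1 0.717 in CD8-gated over ungated cells, Rgs1 1.45 in Foxp3-gated over ungated cells, Cxcr6 3.58 and Rgs1 2.86 in Il17-gated over ungated cells, and Rgs1 0.495 in CD8-gated over Foxp3-gated and 0.251 in CD8-gated over Il17-gated cells. Cd69 gave no ratio under this setting, since its level in at least 1 group was at or below that of B-gated cells.

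Both other settings were chosen after seeing the data. Without cells at another leukocyte gate, Cxcr6 was 1.34 and Rgs1 0.794 in CD8-gated over ungated cells, and 0.484 and 0.431 in CD8-gated over Il17-gated cells. With also 6 CD3 UMI, Itga1 was 1.62, Cd69 0.760, Cxcr6 1.31 and Rgs1 0.724 in CD8-gated over ungated cells, Cd69 0.745 in Foxp3-gated over ungated cells, Cxcr6 2.67 and Rgs1 1.54 in Il17-gated over ungated cells, and Cd69 1.02 in CD8-gated over Foxp3-gated cells.

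Genes past 2-fold numbered 693 in CD8-gated over ungated cells, and 1591 with every class, 394 in the strictest set and 3416 with no filter on counts. They numbered 1509 in Foxp3-gated over ungated cells, and 3931 with stricter subset gates, 2427 with every class, 853 in the strictest set and 5800 with no filter. They numbered 911 in Il17-gated over ungated cells, and 1396, 593 and 4844 with stricter subset gates, in the strictest set and with no filter. Among CD8-gated cells with over without Itgae, thinning left 30 cells with the gene and gave 2.05 for Cd69, 3.31 for Cxcr6 and 1.14 for Rgs1. Without cells of other lineages Cxcr6 was 1.02 and Rgs1 1.75, and in the strictest set Cxcr6 was 1.09. In cells with over without Pdcd1 or Lag3, Cxcr6 was 1.59 in the strictest set.

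Depth limits Itga1 and Zfp683, whose counts in single T cell groups lie between 0 and 43 UMI, and the 178 Foxp3-gated cells. No paired analysis was possible because each fraction is 1 library.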
